A study of Mus musculus with 8 samples.

Results

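The Jun and Fos family comprises the 7 genes that encode the core subunits of the transcription factor AP-1, Jun, Junb and Jund on the Jun side and Fos, Fosb, Fosl1 and Fosl2 on the Fos side. They were taken by symbol from a table of read counts for 24060 genes, and all 7 were among the 13770 genes with enough counts to be tested. The table comes from mouse dorsal root ganglia at lumbar levels L4 to L6, the sensory ganglia whose axons run in the sciatic nerve. The injury group holds 4 libraries of ganglia taken 3 days after a crush of 1 sciatic nerve, and the naïve group holds 4 libraries of uninjured ganglia. Per the design text, 4 mice with 1 crushed nerve each gave both kinds, so the naïve ganglia too come from operated animals. It counts the mice as the replicates but does not spell out that an injury and a naïve library of the same number share a mouse. The test treats the 8 libraries as independent. The fit with the replicate number as a block is given where it changes the call of a family gene or the count of a list. All ganglia were dissociated before RNA was taken, and the labels state no strain, sex or age. Reads start at the polyadenylated 3′ end of a transcript (QuantSeq 3′ mRNA-seq REV), so the number of reads does not grow with transcript length.

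AP-1 is a dimer of proteins with a basic region, which contacts DNA, and a leucine zipper, which holds the dimer together. Jun proteins pair with each other or with Fos proteins, while Fos proteins need a Jun partner, and Jun proteins can also pair with ATF proteins such as Atf3. In an axotomised sensory neuron Jun is phosphorylated by Jun N-terminal kinases and is known as a regulator of axon regrowth. Fos and Fosb are immediate early genes, transcribed within minutes of synaptic activity, growth factors or cell stress, and tissue dissociation is known to raise them. Since all ganglia here were dissociated, dissociation may bear on the level of any gene given, and its part was not tested.

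Of the 7 genes, Jun, Fosl1 and Fosl2 rose, Fosb fell, and Junb, Jund and Fos did not pass the test (edgeR's quasi-likelihood test, adjusted p under 0.05 over all genes tested). This is 4 of 7, where 17.8% of all genes tested were called, 10.1% higher and 7.75% lower. The rise of Jun and Fosl2 was about equal, with a log2 fold change of 0.54 each, and that of Fosl1 was 2.62. Fosb had -0.54.

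Promoter sequences of 6 of the 7 genes were in the RefSeq table of the files' build (GRCm38), each from 250 bases before to 50 after the start that this table takes for the gene. They are printed for Jun and Fosl2, the pair of family genes with the most similar profiles over the 8 libraries, and for Fos and Fosb, whose log2 fold changes were both -0.54. Each runs 5′ to 3′ on the strand of the gene, and capitals mark matches to the motifs searched. For Fosl2 and Fosb that start lies inside the GENCODE gene, and for Fosb also inside the RefSeq gene.

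Jun, chr4:95052173-95052472, minus strand: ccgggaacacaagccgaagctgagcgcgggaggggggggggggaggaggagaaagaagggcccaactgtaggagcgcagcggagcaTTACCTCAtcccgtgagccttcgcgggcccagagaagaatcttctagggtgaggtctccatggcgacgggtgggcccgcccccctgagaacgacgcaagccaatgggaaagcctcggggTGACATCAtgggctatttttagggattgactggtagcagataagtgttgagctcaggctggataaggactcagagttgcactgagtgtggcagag

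Fosl2, chr5:32136222-32136521, plus strand: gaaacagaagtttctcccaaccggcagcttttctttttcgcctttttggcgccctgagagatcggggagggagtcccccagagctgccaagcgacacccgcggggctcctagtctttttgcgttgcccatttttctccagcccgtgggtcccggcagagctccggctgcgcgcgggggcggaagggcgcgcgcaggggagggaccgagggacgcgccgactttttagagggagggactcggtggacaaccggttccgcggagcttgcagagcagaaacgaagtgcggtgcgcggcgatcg

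Fos, chr12:85473640-85473939, plus strand: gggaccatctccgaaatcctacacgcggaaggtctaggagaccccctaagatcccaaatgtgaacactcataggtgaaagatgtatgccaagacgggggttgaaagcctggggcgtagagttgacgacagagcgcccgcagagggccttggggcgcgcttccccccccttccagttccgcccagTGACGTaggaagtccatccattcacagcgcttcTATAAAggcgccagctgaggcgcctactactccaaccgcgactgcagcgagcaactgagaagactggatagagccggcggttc

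Fosb, chr7:19309996-19310295, minus strand: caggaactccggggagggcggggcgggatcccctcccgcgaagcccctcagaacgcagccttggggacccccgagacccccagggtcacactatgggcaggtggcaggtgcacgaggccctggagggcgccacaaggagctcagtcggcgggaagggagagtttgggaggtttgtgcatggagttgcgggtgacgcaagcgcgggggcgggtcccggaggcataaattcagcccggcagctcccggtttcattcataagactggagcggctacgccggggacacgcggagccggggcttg

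The motifs, searched on both strands, were the consensus AP-1 site TGACTCA, the cAMP response element (CRE) TGACGTCA and its first 6 letters TGACGT, the 2 AP-1 variants known from the Jun promoter, TGACATCA and TTACCTCA, and the TATA box TATAAA. A TGACGTCA match also counts as a TGACGT match. In Jun, the family's most abundant gene here, TTACCTCA starts at position -164 and TGACATCA at -45 relative to the start. These letters are known as sites through which Jun and Atf2 act on the Jun gene. TTACCTCA occurs in 0.89% and TGACATCA in 3.62% of 32851 promoters of this length. The Fos promoter has TGACGT, which 7.51% of promoters have, at position -66, and TATAAA at -33. The promoters of Fosb and Fosl2 hold none of the 6 motifs within these 300 bases. The promoter of Junb, not printed, holds TATAAA (13.62% of promoters) at position 0, on the start itself and not before it. For Junb and Jund the start taken lies before the GENCODE gene.

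Jun (GRCm38, GENCODE vM21, chromosome 4, 95049034 to 95052222, minus strand) encodes the subunit for which the family is named, and it was the most abundant member in every library. It had 729, 675, 724 and 754 CPM in injury libraries 1 to 4, against 529, 467, 495 and 492 CPM in naïve libraries 1 to 4 (CPM, counts scaled to a common library size). All injury libraries stood above all naïve libraries, and the spread within each group was small. The means were 720.4 ± 32.8 CPM in injured and 496 ± 25.3 CPM in naïve ganglia (SD, n = 4 each; log2 fold change 0.54, SE 0.07, adjusted p = 0.000228). Jun, Fosl1 and Fosl2 had injury libraries above all naïve libraries, as 12.6% of all genes tested did, and Fosb below them, as 10.8% did (23.4% in all). Counts of dissociated ganglia cannot tell a change in the RNA per cell from a change in the share of cells that carry it. This holds for Jun and all other genes given here.

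Junb (chromosome 8, 84974484 to 84978718, minus strand), which encodes a Jun protein that can oppose Jun at some targets, had 253, 260.4, 558 and 323 CPM in injury libraries 1 to 4, against 325, 269, 284 and 321 CPM in naïve libraries 1 to 4. Injury library 3 was far above the other 7 libraries, which overlapped. The log2 fold change was 0.22 (SE 0.21, adjusted p = 0.511), with a 95% interval from -0.29 to 0.73. Without injury library 3 it was -0.10 (adjusted p = 0.556), so the direction for Junb rests on that library.

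Jund (chromosome 8, 70698949 to 70700616, plus strand), the Jun member known for broad expression in resting cells, had 134, 136, 213 and 116 CPM in injury libraries 1 to 4, against 111, 128, 135 and 127 CPM in naïve libraries 1 to 4. Injury library 3 was again the highest, and the other libraries of the groups overlapped. The log2 fold change was 0.26 (SE 0.16, adjusted p = 0.291, 95% interval -0.13 to 0.65), and 0.04 without injury library 3 (adjusted p = 0.809).

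**Figure D1:**
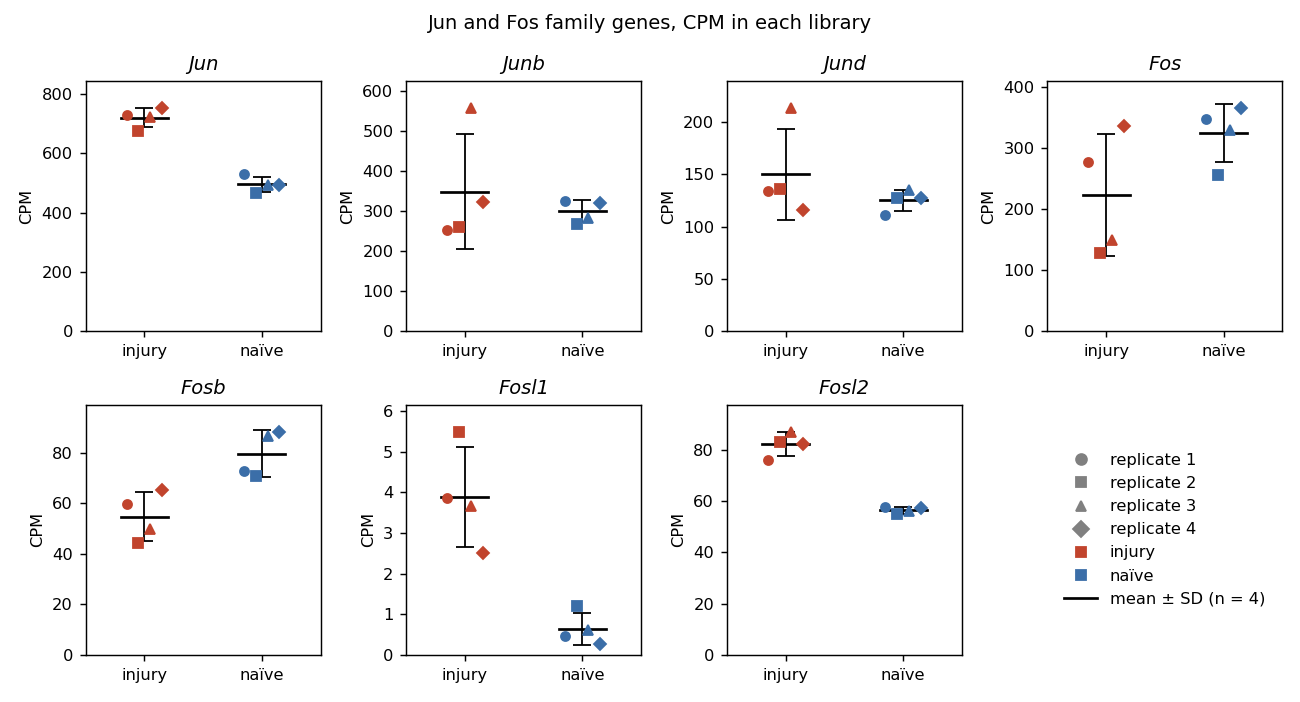
CPM (vertical axes, starting at 0) of the 7 family genes in each injury (left) and naïve (right) library. Points are libraries with a symbol per replicate number, and lines with bars are means ± SD (n = 4). The groups do not overlap for Jun, Fosl1, Fosl2 and Fosb.

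Fos (chromosome 12, 85473890 to 85477273, plus strand), the immediate early gene used as a marker of recent neuronal activity, had 278, 128, 150.3 and 336 CPM in injury libraries 1 to 4, against 348, 257, 330.0 and 366 CPM in naïve libraries 1 to 4. Injury libraries 2 and 3 were below all others, while injury libraries 1 and 4 lay within the naïve range. The means were 223 ± 100.2 CPM in injured and 325 ± 48.1 CPM in naïve ganglia (SD, n = 4 each), and the difference did not pass the test (log2 fold change -0.54, SE 0.25, adjusted p = 0.167, 95% interval -1.17 to 0.08). With the replicate number as a block Fos was called lower (log2 fold change -0.64, SE 0.15, adjusted p = 0.0160), as were 9.01% of all genes tested (10.1% were called higher, 19.1% in all). Its log2 differences in the 4 same-numbered pairs were all below 0 and ranged from -1.13 to -0.12. Leaving out injury library 4 also made Fos a lower call (log2 fold change -0.81, adjusted p = 0.0271). Without injury library 2 the log2 fold change of Fos was -0.36 (adjusted p = 0.342). Without naïve 2, injury 2 and injury 3 together, it was -0.19 (SE 0.08, adjusted p = 0.157). These libraries hold the lowest Fos values of their groups, so this fit cannot tell what part they have in the difference.

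Fosb (chromosome 7, 19302696 to 19310051, minus strand), known also for its long-lived splice form ΔFosB, had 59.9, 44.3, 49.7 and 65.4 CPM in injury libraries 1 to 4, against 72.8, 70.8, 86.9 and 88.5 CPM in naïve libraries 1 to 4. All injury libraries were below all naïve libraries, and injury libraries 2 and 3 were the lowest, as for Fos. The means were 54.8 ± 9.57 CPM in injured and 79.8 ± 9.24 CPM in naïve ganglia (SD, n = 4 each; log2 fold change -0.54, SE 0.13, adjusted p = 0.0127). Fosb kept its call when each library was left out in turn, with adjusted p up to 0.0468. Without naïve 2, injury 2 and injury 3 together its log2 fold change was -0.41 (adjusted p = 0.0137). For Fosb too, these libraries hold the lowest values of their groups.

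The injury libraries with the lowest Fos were also low in some other genes but not in all immediate early genes, and the genes given here were chosen after their values were seen. The nuclear receptor gene Nr4a1, another immediate early gene, had 50.3, 13.5, 19.3 and 54.2 CPM in injury libraries 1 to 4, against 61.0, 71.9, 77.0 and 69.4 CPM in naïve libraries 1 to 4 (log2 fold change -1.03, adjusted p = 0.0618). Zfp36, whose protein promotes decay of AU-rich mRNAs, had 81.6, 32.6, 55.0 and 88.5 CPM in injury libraries 1 to 4, against 78.5, 61.4, 76.2 and 79.7 CPM in naïve libraries 1 to 4. For both genes injury libraries 2 and 3 held the lowest values of all 8 libraries. Egr1, an immediate early transcription factor, had 413, 325, 387 and 455 CPM in injury libraries 1 to 4, against 481, 447, 439 and 431 CPM in naïve libraries 1 to 4 (log2 fold change -0.19, SE 0.10, adjusted p = 0.219). Its lowest values were also those of injury 2 and 3, with less distance to the rest. Ier3, an immediate early gene linked to cell survival, had its highest value in injury library 3, with 333, 326, 422 and 309 CPM in injury libraries 1 to 4, against 299, 278, 274 and 283 CPM in naïve libraries 1 to 4. Ier2 and Dusp6, a phosphatase of ERK, were also highest in injury library 3, at 29.1 and 138 CPM. In injury library 2 they had 20.2 and 101 CPM. For Ier2, naïve library 2 was nearly as high as injury 3, at 28.7 CPM. Crtc2, a coactivator of CREB, had 32.9, 0.425, 0.0483 and 33.7 CPM in injury libraries 1 to 4, against 47.2, 5.54, 49.5 and 49.9 CPM in naïve libraries 1 to 4. Injury 2, injury 3 and naïve 2 were thus far below the other libraries in Crtc2, a gap that crosses the groups. Whatever sets these libraries apart was not tested as a part of the Fos difference.

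**Figure D2:**
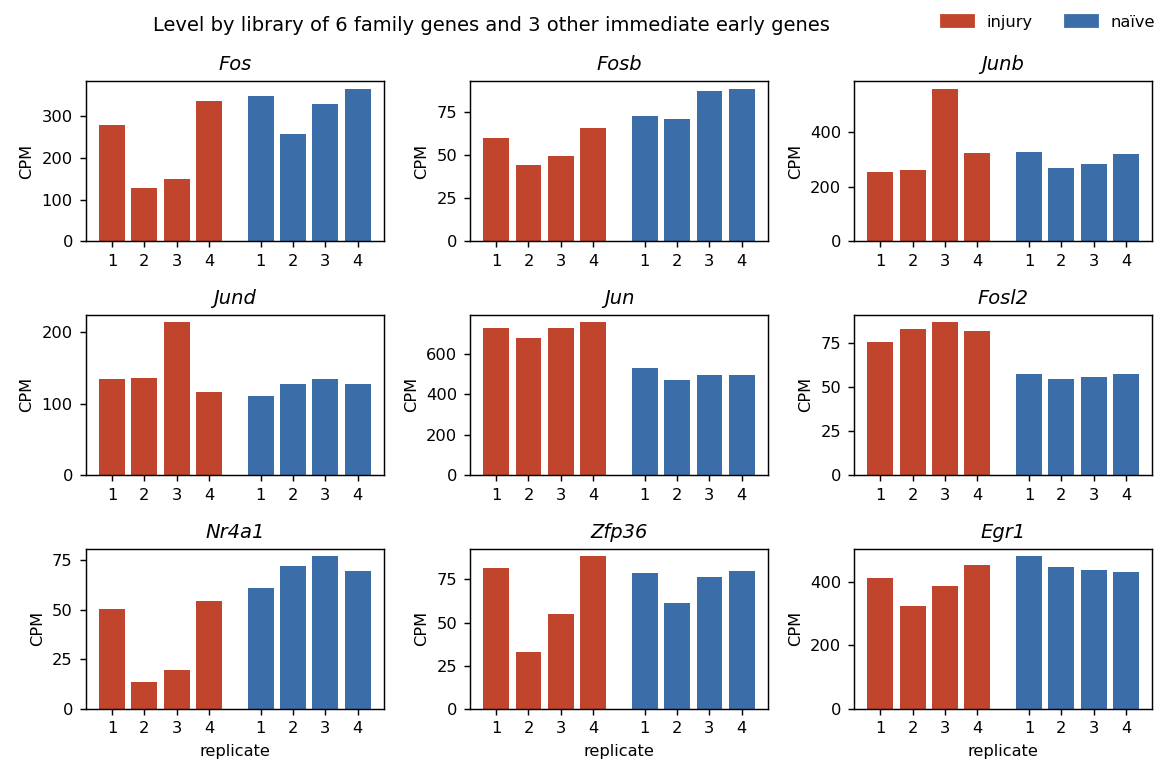
CPM (vertical axes, starting at 0) in each library by replicate number, with injury libraries in red on the left and naïve libraries in blue on the right. Fos, Nr4a1 and Zfp36 are lowest in injury libraries 2 and 3, Junb and Jund are highest in injury library 3, and Jun and Fosl2 vary little within a group.

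The base composition of the 3′ end was set beside these values. In the last 100 nucleotides of the transcript, GC content was 31% for Fos and for Fosl2, 28% for Jun, 26% for Junb, 42% for Jund, 40% for Fosl1 and 57% for Fosb. Among 2494 genes within 2.5 percentage points of Fos, the median deviation from the group mean was 0.04, -0.01, -0.06 and 0.05 (log2) in injury libraries 1 to 4. Fos itself deviated by 0.43, -0.68, -0.46 and 0.71 in these libraries. With an offset for GC content, chosen after seeing the data, Fos had a log2 fold change of -0.52 (adjusted p = 0.137) and Fosb of -0.57 (adjusted p = 0.0245).

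Fosl1 (chromosome 19, 5447547 to 5455946, plus strand) encodes Fra-1, a Fos protein without the transactivation domain of Fos that is itself known as an AP-1 target. It was the rarest member, with 87, 155, 76 and 41 reads in injury libraries 1 to 4, against 10, 25, 11 and 6 reads in naïve libraries 1 to 4. In CPM these were 3.85, 5.49, 3.67 and 2.51 in injury libraries, against 0.477, 1.19, 0.601 and 0.262 in naïve libraries. Every injury library was above every naïve library. The means were 3.88 ± 1.23 CPM in injured and 0.634 ± 0.399 CPM in naïve ganglia (SD, n = 4 each; log2 fold change 2.62, SE 0.44, adjusted p = 0.00143), a fitted ratio of 6.13 to 1. When each library was left out in turn, the log2 fold change ranged from 2.35 to 3.13 and the call held. With only 6 reads in naïve library 4, Fosl1 passed the filter on low counts with the help of its injury libraries. Without that filter its log2 fold change was also 2.62 (edgeR, adjusted p = 0.000593).

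Fosl2 (chromosome 5, 32135801 to 32157842, plus strand) encodes Fra-2, the other Fos protein of that kind. It had 75.7, 83.1, 87.0 and 82.2 CPM in injury libraries 1 to 4, against 57.5, 54.7, 56.0 and 57.4 CPM in naïve libraries 1 to 4. The groups did not overlap, and the naïve libraries lay close together. The means were 82.0 ± 4.67 CPM in injured and 56.4 ± 1.33 CPM in naïve ganglia (SD, n = 4 each; log2 fold change 0.54, SE 0.08, adjusted p = 0.000675).

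**Figure D3:**
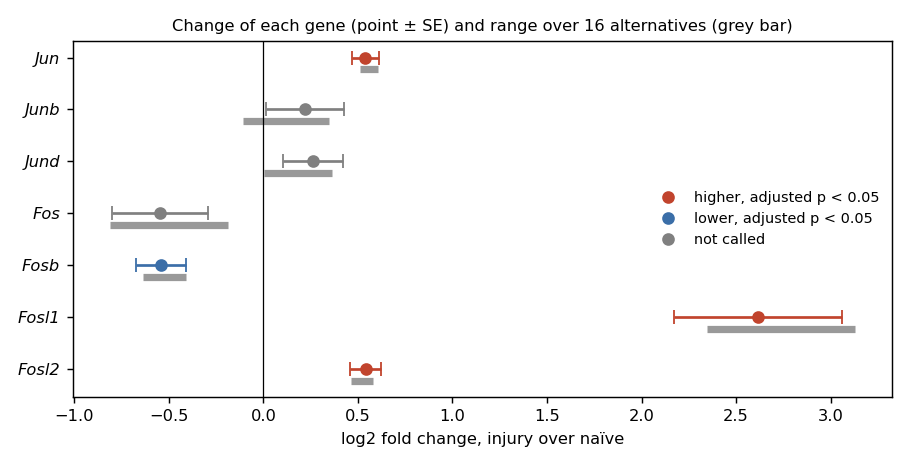
Log2 fold change of injury over naïve (horizontal axis) for each family gene as a point with its SE, red for higher, blue for lower and grey for not called. The grey bar spans the values under 16 alternative settings, and it crosses 0 only for Junb.

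In the family's counts Jun held a larger share and Fos a smaller one in the injury libraries. Shares of a fixed total depend on each other, so a rise of Jun alone lowers the share of Fos. Jun gave 47.5%, 50.7%, 40.5% and 44.9% of the counts of the 7 genes in injury libraries 1 to 4, against 36.6%, 37.5%, 35.7% and 33.9% in naïve libraries 1 to 4. Fos gave 18.1%, 9.63%, 8.41% and 20.02% in injury libraries, against 24.1%, 20.6%, 23.8% and 25.2% in naïve libraries. Neither share overlapped between groups, though for Fos the groups came close (20.02% against 20.6%). Per 100 Jun reads there were 38.2, 19.0, 20.8 and 44.6 Fos reads in injury libraries, against 65.8, 54.9, 66.7 and 74.5 in naïve libraries, a ratio that does not depend on how libraries are scaled. Fosl1 made up 0.25% ± 0.11 of family counts in injured and 0.048% ± 0.034 in naïve ganglia (SD, n = 4 each), so it stayed a trace component. All 3 Jun genes together held 1116, 1072, 1495 and 1193 CPM in injury libraries, against 965, 864, 914 and 939.7 CPM in naïve libraries. The 4 Fos genes together held 418, 261, 291 and 486 CPM in injury libraries, against 479, 383, 474 and 513 CPM in naïve libraries, and these overlapped. No test was made of sums or shares, since the genes form a chosen list.

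**Figure D4:**
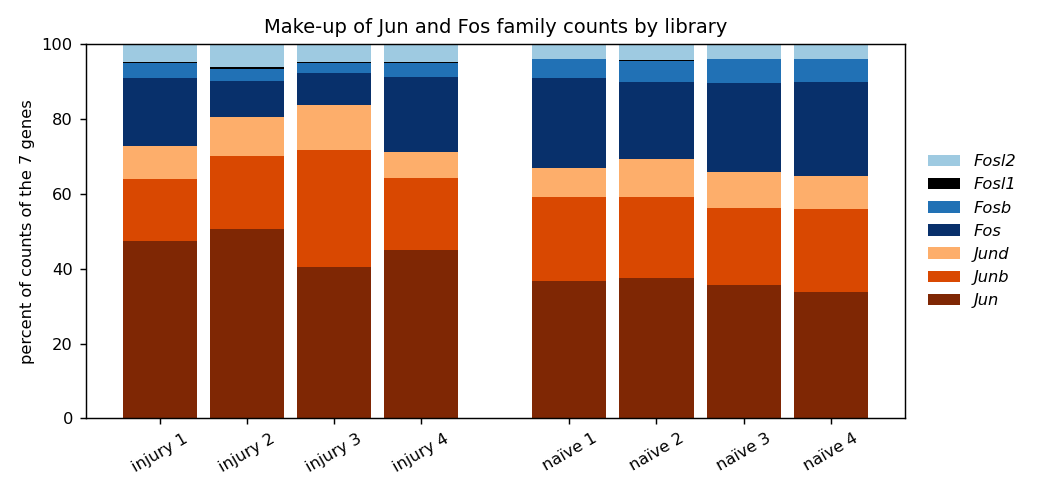
Percent of the counts of the 7 family genes (vertical axis) that each gene gave in the 4 injury libraries (left) and the 4 naïve libraries (right). Jun is 40.5% to 50.7% in injury and 33.9% to 37.5% in naïve libraries, and Fos is 8.41% to 20.02% in injury and 20.6% to 25.2% in naïve libraries.

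By level, the order in injured ganglia was Jun, Junb, Fos, Jund, Fosl2, Fosb and Fosl1, and in naïve ganglia Jun, Fos, Junb, Jund, Fosb, Fosl2 and Fosl1. These levels are CPM of 3′ reads, and the yield of reads may differ between transcripts. Junb and Fos overlapped in both groups, as did Fos and Jund in injured ganglia. Fosb and Fosl2 changed places without overlap. In injury libraries Fosl2 ranged from 75.7 to 87.0 CPM and Fosb from 44.3 to 65.4 CPM, and in naïve libraries Fosl2 ranged from 54.7 to 57.5 CPM and Fosb from 70.8 to 88.5 CPM. Jun ranked 205th of 13770 genes by average level, Fosl1 11527th.

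Likeness of profiles was measured as the root mean square difference of log2 CPM over the 8 libraries, each gene centred on its mean, among genes whose mean log2 CPM was 3 or more. Within the family Jun and Fosl2 differed by 0.08, Junb and Jund by 0.23, and Fos and Fosb by 0.29. Over all such genes, those nearest to Jun were Spop, Tsc22d2 and Kdm5c (0.05, 0.06 and 0.07), and those nearest to Fosl2 were Cep170b, Hs2st1 and Atg12 (each 0.05 after rounding). The genes nearest to Fos were Krcc1, Acat1 and Zfp770 (0.11, 0.11 and 0.12), none of which was called. Efr3a, Sgpp2 and Aldh6a1 were nearest to Fosb (each 0.08), and Chac1, Camk1 and Mmp16 to Fosl1 (0.44, 0.46 and 0.47, with a prior count of 2). The larger distances for Fosl1 go with its low counts, and the order depends on the prior count: with 0.5, these 3 genes ranked 4th, 3rd and 2nd.

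Among 10 measured genes of other AP-1 dimer partners, 2 rose and none fell, against 10.1% higher over all genes. The count of none lower is by edgeR, with 0 at an unadjusted p under 0.05 and 0 by DESeq2. Atf3, a partner of Jun known to be induced by axotomy, had 323, 373, 311 and 309 CPM in injury libraries 1 to 4, against 62.6, 49.1, 62.6 and 67.3 CPM in naïve libraries 1 to 4 (log2 fold change 2.45, SE 0.11, adjusted p = 1.89e-08). All injury libraries lay several times above all naïve libraries, without overlap. Per 100 Jun reads there were 44.3, 55.3, 43.0 and 41.0 Atf3 reads in injury libraries, against 11.8, 10.5, 12.7 and 13.7 in naïve libraries. Atf4, the effector of the integrated stress response, averaged 604 ± 206 CPM in injured and 295 ± 35.6 CPM in naïve ganglia (log2 fold change 1.03, SE 0.18, adjusted p = 0.00208). Injury library 3, which was highest in Junb and Jund, was also the highest in Atf4, at 908 CPM. Genes of other lists were highest there too, such as Ret at 698 CPM and Hsp90aa1 at 175 CPM. Mafg, another dimer partner, was lowest there, at 138 CPM. What sets this library apart was not tested.

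Of 18 measured genes of the kinase arm that acts on Jun, 2 rose (11.1%) and 1 fell (5.56%). Over all genes tested the shares were 10.1% and 7.75%. The median log2 fold change of the arm was -0.03, against -0.02 over all genes. Cops5, a COP9 signalosome subunit first described as a coactivator of Jun, averaged 397 ± 27.4 CPM in injured and 269 ± 24.6 CPM in naïve ganglia (log2 fold change 0.56, SE 0.09, adjusted p = 0.00071). Mapk8, which encodes the kinase JNK1, averaged 145 ± 7.38 CPM in injured and 123 ± 2.22 CPM in naïve ganglia (log2 fold change 0.24, SE 0.07, adjusted p = 0.0371). Its call was lost with the replicate block (adjusted p = 0.0615), without the filter on low counts and when any 1 library other than injury 3 was left out (adjusted p up to 0.109 over these). Map3k1, an upstream kinase of the same arm, had -0.74 (adjusted p = 0.0349), and was not called without injury 2 or 3 or naïve 1, 3 or 4 (adjusted p up to 0.102).

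Of 20 measured genes of the SRF, TCF, CREB and ERK arm, through which Fos is known to be induced, 8 rose (40.0%) and 1 fell, with a median of -0.04. Over all genes tested 10.1% rose and 7.75% fell. The count of higher genes in the arm was 6 with the replicate block, 4 without naïve 1, 3 or 4, and 5 without injury 2 or 3. Crem, a CREB relative with repressor and activator forms, averaged 20.8 ± 1.45 CPM in injured and 9.40 ± 2.23 CPM in naïve ganglia (log2 fold change 1.15, SE 0.16, adjusted p = 0.000434). Rps6ka1, which encodes the ERK-activated kinase RSK1, averaged 21.5 ± 3.85 CPM in injured and 10.4 ± 1.37 CPM in naïve ganglia (log2 fold change 1.04, SE 0.16, adjusted p = 0.000602). Stat3, a cytokine-activated factor, and Mkl1, a coactivator of SRF, also rose, by 0.38 and 0.53 on the log2 scale (SE 0.07 and 0.12). Rps6ka3, named as the only lower gene, had -0.42 (adjusted p = 0.0368) and was not called without naïve 1, 2, 3 or 4, injury 2 or injury 3, or without naïve 2, injury 2 and injury 3 together (adjusted p up to 0.0955).

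Of 18 measured genes described as targets of Jun or AP-1, 11 rose (61.1%) and 1 fell. Over all genes tested the shares were 10.1% and 7.75%. The median over the list was 1.41 on the log2 scale. This list holds genes long known to rise in injured neurons and is no independent evidence of AP-1 activity. Those with the smallest p were the neuropeptide genes Gal, Nts and Npy and the cornified envelope gene Sprr1a, with log2 fold changes of 4.51, 4.55, 7.03 and 9.14. Nts averaged 243 ± 24.9 CPM in injured and 10.4 ± 2.16 CPM in naïve ganglia (SE 0.15, adjusted p = 1.22e-09). The gene that fell was Mmp9, a matrix protease that neutrophils carry. It averaged 2.96 ± 1.40 CPM in injured and 9.98 ± 7.27 CPM in naïve ganglia (log2 fold change -1.77, adjusted p = 0.0317), and its call was lost with limma-voom and without injury 1 or 2 or naïve 3 or 4 (adjusted p up to 0.120).

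By edgeR 10.1% of all genes tested rose and 7.75% fell. Among 30 measured immediate early genes outside the family, 4 rose (13.3%) and none fell by edgeR, with a median of -0.18. At an unadjusted p under 0.05 there were 6 higher and 2 lower, DESeq2 called 0 lower, and limma-voom and the replicate block 1 each. Those that rose were Ier5 (log2 fold change 0.80), Csrnp1 (0.58), Klf6 (0.84), a factor known to promote axon growth, and Dusp1 (0.30), a phosphatase of MAP kinases. Dusp1 lost its call without injury 3 or 4 or any 1 naïve library (adjusted p up to 0.103). Of 8 heat shock genes known to rise on dissociation, Hsp90aa1 rose (0.72) and Hspa1b fell (-0.66, adjusted p = 0.0375), a call that was lost without injury 3 or 4 or naïve 1, 2 or 3 (adjusted p up to 0.114). The 8 genes summed to 2038 to 2439 CPM in injury and 2212 to 2454 CPM in naïve libraries.

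**Figure D5:**
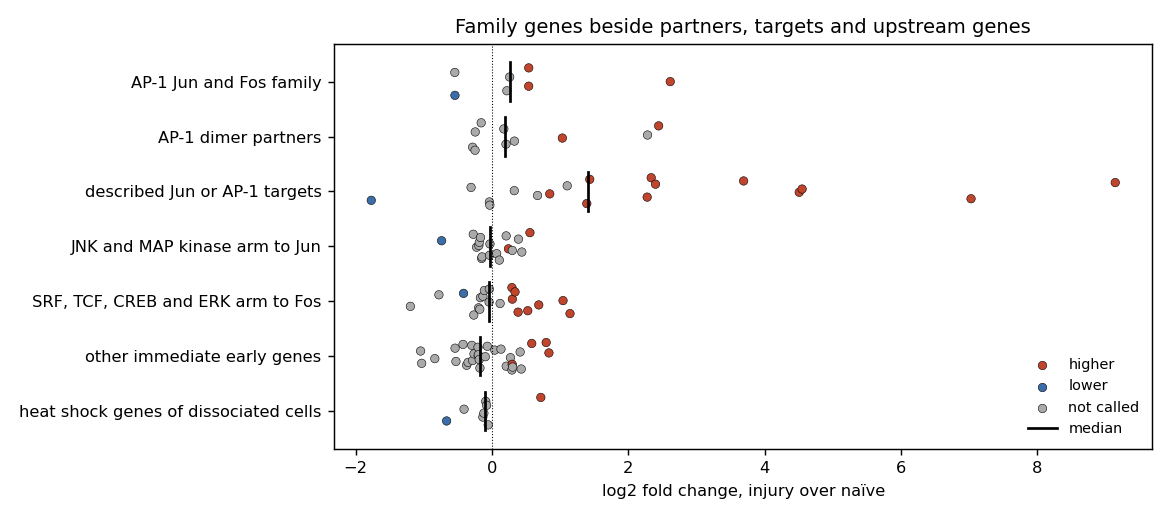
Log2 fold change of injury over naïve (horizontal axis) for each measured gene of 7 lists, red for higher, blue for lower and grey for not called, with a line at each list's median. Medians lie at 0.26 for the family and 1.41 for described targets, and between -0.18 and 0.19 for the other lists.

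Markers of cell types also moved with the groups, and their part in the family's differences was not tested. Sensory neuron markers were abundant, with sums of 14220 to 18450 CPM in injury and 13260 to 13520 CPM in naïve libraries. These sums rest largely on Tubb3 and Uchl1, with means of 6581 and 5236 CPM in injured and 4503 and 4046 CPM in naïve ganglia. The median log2 fold change of the list was -0.30. Of 12 measured, 2 rose (Tubb3 and Ret) and 4 fell, among them Scn10a. The replicate block and DESeq2 each called 3 higher and 6 lower, and limma-voom 2 higher and 6 lower. Over all genes tested 10.1% rose and 7.75% fell. Of 9 macrophage markers 7 rose (4 without naïve 2, injury 2 and injury 3 together), Cx3cr1, C1qa, C1qc and Aif1 first by p, and they summed to 39.3 to 60.7 CPM in injury and 11.2 to 27.0 CPM in naïve libraries. Neutrophil markers summed to 134 to 476 CPM in injury and 378 to 1305 CPM in naïve libraries. Of these 6 genes 1 fell, Ltf (adjusted p = 0.0419, not called without injury 1 or 2 or naïve 3 or 4), while 6 fell with the replicate block, 5 without the filter on low counts or without injury 4, 4 without naïve 1 or without naïve 2, injury 2 and injury 3 together, and 3 without naïve 2. Of 10 satellite glia and Schwann cell markers 1 rose, Glul, and none of 11 fibroblast and vessel markers was called by edgeR, DESeq2 or limma-voom, with 0 at an unadjusted p under 0.05. No marker was at 0 in all libraries.

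Use of poly(A) sites, the subject of the series, could not be described for the family. The deposited table of counts in genomic windows lists 6 rows at each of Junb, Jund, Fos and Fosl1, 10 at Fosl2 and none at Jun or Fosb. All of these rows are at 0 in every library, although the gene table gives reads to these genes in every library. Most rows at 0 stand in unbroken stretches: of 146586 such rows, 88.4% lie in 32 stretches of at least 1000. The rows of Junb, Jund, Fos and Fosl2 lie in such stretches, while at least 1 row of Fosl1 lies in a stretch of only 4. The window values of the family were not used.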

How the data were processed

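The build was GRCm38 (mm10) and the tools included STAR, HTSeq and bcl2fastq 2.17, per the submitters' processing notes, with no version for the first 2. The authors deposited raw read counts per gene, not normalized, and raw read counts per genomic window. Gene counts summed to 16539644 to 28950551 in injury and 17459084 to 22092535 in naïve libraries. Dates stand in the name column of 27 gene rows (0.133% to 0.164% of counts) and stayed in the fits.

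Genes were tested with edgeR 4.0.16 in R 4.3.3 (quasi-likelihood test with group alone in the model, TMM, filterByExpr), adjusted by Benjamini-Hochberg over 13770 genes with a threshold of 0.05. The fit was also run on counts simulated for independent libraries, which cannot show whether it suits libraries that share mice. Fold changes are injury over naïve. Intervals use 6 residual degrees of freedom. Log2 CPM used a prior count of 2. Positions and transcripts are those of GENCODE vM21 on the same build. The GC content was known for 92.6% of tested genes.

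The family and the gene lists were chosen with earlier results of these data known. Genes named are the 7 members, up to 4 called genes per list by smallest p, Atf3, and the 3 nearest profiles of 5 members. Others (Nr4a1, Zfp36, Egr1, Ier2, Ier3, Dusp6, Crtc2, Rps6ka3 and Mmp9) were chosen after their values were seen. In the list of macrophage markers 9 of 10 genes were found in the table. Alternatives were RLE factors, no filter, DESeq2 1.42.0, limma-voom (limma 3.58.1), the replicate number as a block, each library left out, 3 libraries left out together, and, added after seeing the data, a GC offset without and with the block.

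Same-numbered libraries' deviations from their group means correlated over genes by 0.13, 0.22, 0.05 and 0.17 in pairs 1 to 4. Libraries with different numbers correlated by -0.256 to 0.113. Injury 3 correlated with naïve 2 (0.058) about as much as with naïve 3 (0.048). The design text counts mice as replicates, so the number was used as a block in an alternative, on the assumption that it marks a mouse. A gene that the rule for named genes takes is not reported here. The planned test of poly(A) window use was not run, since all window rows of the family are at 0.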

Additional observations from a re-analysis of the deposited data

How the results depend on the processing

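Jun, Fosl1, Fosl2 and Fosb kept their direction and their call in all 16 alternatives. Their log2 fold changes ranged from 0.51 to 0.61 for Jun, 2.35 to 3.13 for Fosl1, 0.47 to 0.58 for Fosl2 and -0.64 to -0.41 for Fosb, with adjusted p up to 0.00188, 0.00711, 0.00433 and 0.0468. Fos was called in 3 alternatives: with the replicate block (-0.64, which makes 2 lower genes of the family), with the GC offset and the replicate block (-0.61, adjusted p = 0.00885, again 2) and without injury replicate 4 (-0.81, again 2). With single libraries left out Fos ranged from -0.81 to -0.36, Junb from -0.10 to 0.35, and the count of lower family genes from 1 to 2. Junb turned to -0.10 without injury replicate 3 and to -0.11 without naïve 2, injury 2 and injury 3 together; Jund was 0.01 in that setting. The replicate block changed no other call in the family, and among the other genes named it ended that of Mapk8 (0.24, adjusted p = 0.0615). It gave 1 higher gene of the JNK and MAP kinase arm, against 2, and 6 lower neutrophil markers and 1 lower gene among the other immediate early genes, against 1 and 0. In the SRF, TCF, CREB and ERK arm it gave 6 higher genes, against 8. Among sensory neuron markers it gave 3 higher and 6 lower, against 2 and 4. For each of these changes the cause was not tested. Without naïve replicate 3 there were 689 lower genes over the table, against 1067. Fosl1 rests on 6 to 25 reads in a naïve library. Alternative windows and poly(A) site use were not run, since the windows of the family are listed at 0.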
